A study of Mus musculus with 9 samples.

Results

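Cholesterol and fatty acid synthesis was followed across 3 populations of CD8+ T cells through 34 genes of both pathways. Members were the genes on a list of 38 names, which stand for 37 genes because Sc4mol and Msmo1 are the same gene, that had a probe set naming that gene alone. Each was read from 1 probe set, the one with the highest mean over the 9 arrays. The 34 members were 18 enzymes of cholesterol synthesis, 5 genes of its control and sterol transfer, and 11 enzymes of fatty acid synthesis, of 13152 genes measured in all. Insig1, Acsl3 and Acaca were listed but had no value here, and Acaca appeared on the array only on a probe set that names several genes. The members were listed by gene name, with earlier results of these data known.

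In mammalian cells cholesterol is built from acetyl-CoA through mevalonate, isoprenoid diphosphates and squalene, and the same isoprenoids also serve protein prenylation and ubiquinone. Fatty acids are built from acetyl-CoA as well, then lengthened by elongases, given double bonds by desaturases and activated to acyl-CoA by synthetases. Both routes are controlled by the SREBP transcription factors, which Scap escorts from the endoplasmic reticulum to the Golgi for cleavage when sterols are low, and which Insig proteins hold back. T cells that divide need new membrane, and SREBP activity is known to be required for the clonal expansion of CD8+ T cells.

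The arrays come from a mouse model of graft-versus-host disease, in which T cells of a transplant attack the host. Postmitotic cells were CD44-lo/CD62L-hi/CD8+ and effector cells were CD44-hi/CD62L-lo/CD8+ and are called effector memory in the labels. Both were sorted from the T cells of 4 male B6/SJL recipients pooled for each preparation. These had received 10 Gy of irradiation, CD8+ T cells of the CD44-lo/CD62L-hi phenotype from female C3H.SW donors and T cell-depleted bone marrow 14 days before. Naive cells were CD44-lo/CD62L-hi/CD8+ T cells pooled from 2 normal female C3H.SW mice for each preparation, with no irradiation or transplantation. There were 3 biological replicates per population, each on 1 Affymetrix Mouse430A 2.0 array. Transplantation, the irradiated host and the number of pooled mice therefore separate both recipient groups from naive cells and cannot be told apart from the cells' state. The ages of the mice and the strain that gave the marrow are not given in the sources used here. Values are deposited log2 signals to which the authors added an offset, so that a probe set with zero signal reads 6.64 and folds of dim genes are understated. The number of arrays limits the precision. The arrays measure pools of cells, so fewer cells of a type and less RNA per cell cannot be told apart.

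On the arrays, Cd44 followed the sort. It averaged 7.33 ± 0.40 in postmitotic cells, 11.11 ± 0.20 in effector cells and 7.28 ± 0.33 in naive cells (log2 signal, SD, n = 3 each). None of the 10 T cell identity genes had a mean at or below zero signal in any group. All 21 measured cell cycle genes were called higher in effector than in naive cells, 11 of 21 were called higher in postmitotic than in naive cells, and 19 of 21 were called lower in postmitotic than in effector cells. The summed signal of 14 myeloid markers ranged over the arrays of a group from 1259.6 to 3617.9 in postmitotic, 3625.7 to 8165.0 in effector and 3178.2 to 4001.7 in naive cells, with Cybb at or below zero signal on average in postmitotic and naive cells and Cd14 in effector cells. Csf1r alone made up 31.8% to 54.5% of that sum in postmitotic, 48.1% to 64.8% in effector and 52.9% to 64.8% in naive cells. Over 10 B cell markers it ranged from 717.3 to 1012.8 in postmitotic, 942.9 to 1073.2 in effector and 813.0 to 937.9 in naive cells. Over 6 erythroid markers it ranged from 432.6 to 734.2 in postmitotic, 195.1 to 277.9 in effector and 122.0 to 279.0 in naive cells, with Alas2 at or below zero signal in every group. Signal of the 4 Y-linked genes, which male recipient cells carry and female donor cells lack, reached 3816.1 in summed signal on postmitotic array 3 and 971.3 on effector array 3, against at most 173.2 on the naive arrays. RNA controls did not give the groups 1 order. The probe sets near the 3' end exceeded those near the 5' end for actin by 1.35 to 1.48 in postmitotic, 0.78 to 0.97 in effector and 1.28 to 1.87 in naive cells on the log2 scale. For Gapdh the excess was 2.89 to 2.96 in postmitotic, 2.84 to 2.88 in effector and 2.99 to 3.12 in naive cells, and for the transferrin receptor it was 1.07 to 1.75, 1.28 to 1.94 and 0.38 to 0.54 in the same order. The part of these differences in the results below was not tested, and counts without these 2 arrays with Y-linked signal are given beside each comparison.

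Promoter windows of 250 bases before to 50 bases after the transcription start were found in the RefSeq table of mouse build GRCm38.p6 for 27 of the 34 members, as 36 windows. Fdps, Fdft1, Sqle, Stard4, Scd1, Scd2 and Fads1 were not in it. The windows were searched on both strands for the sterol regulatory element TCACNCCAC, which SREBP proteins bind, the NF-Y box CCAAT, whose factor acts with them at many sterol genes, and the E-box CACGTG. Neighbouring motifs can share end bases, and each was counted on its own. The stretches below belong to members called between effector and naive cells. Idi1 and Cyp51 were called higher in effector cells, and Hmgcs1, Mvd, Elovl5 and Srebf2 lower. Each stretch gives the motif and 25 bases on either side where the sequence before the start allows, in the direction of transcription. Capitals mark the motif, which reads ATTGG where the NF-Y box lies on the other strand. The Hmgcs1 stretch lies at chr13:119690189-119690247 on the plus strand, Idi1 at chr13:8885536-8885590 on the plus strand, Cyp51 at chr5:4104698-4104751 on the minus strand, Mvd at chr8:122443423-122443474 on the minus strand, Elovl5 at chr9:77917269-77917323 on the plus strand and Srebf2 at chr15:82147109-82147163 on the plus strand.
Hmgcs1: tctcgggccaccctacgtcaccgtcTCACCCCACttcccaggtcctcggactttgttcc
Idi1: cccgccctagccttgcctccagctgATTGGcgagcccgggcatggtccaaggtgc
Cyp51: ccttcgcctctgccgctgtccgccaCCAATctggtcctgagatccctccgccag
Mvd: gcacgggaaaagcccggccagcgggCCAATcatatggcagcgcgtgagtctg
Elovl5: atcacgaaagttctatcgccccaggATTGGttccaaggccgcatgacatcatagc
Srebf2: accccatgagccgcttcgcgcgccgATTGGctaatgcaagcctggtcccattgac

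The sterol regulatory element in these letters stood in 1 of the 36 member windows (2.78%), that of Hmgcs1, against 1.24% of all 32851 windows. An NF-Y box stood in 23 member windows (63.9%), of 22 genes, against 37.4% of all windows. The E-box was found in 6 member windows (16.7%), of Dhcr7, Elovl5, Hsd17b7, Sc5d and Scap, against 7.15% of all. Cyp51, which was higher in effector cells, and Mvd, which was lower there, both carried an NF-Y box close to the start, as did Idi1, higher in effector cells, and Elovl5, lower in them. A match describes letters in a window and is no measured site of binding.

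Effector cells differed from naive cells in 20 of the 34 members, in both directions. Higher were 11 members, among them squalene synthase (Fdft1), the stearoyl-CoA desaturase Scd2, the isomerase Idi1 and the sterol demethylase Cyp51. Lower were 9, among them the control genes Scap, Srebf2 and Srebf1, the thiolase Acat2 and the elongases Elovl5 and Elovl6. By limma with Benjamini-Hochberg adjustment over all genes at 0.05, 30.8% of all genes were called in this comparison, 14.5% higher and 16.3% lower. The members' median log2 difference was -0.02, against -0.06 over all genes. With postmitotic array 3 and effector array 3 left out for their Y-linked signal, 15 members were called, 9 higher and 6 lower. Hmgcs1, Sqle, Ebp, Srebf1, Elovl1 and Elovl6 then no longer passed, with adjusted p of 0.0544 to 0.09, and Sc5d passed in addition. The 21 cell cycle genes moved with this comparison, at a median log2 difference of 2.91, and their part in it was not tested. At p under 0.01 and a fold over 1.5 in the authors' deposited table, 12 members were selected, 8 higher and 4 lower, against 18.4% of all genes.

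Postmitotic cells differed from naive cells in 7 members. The elongase Elovl6, farnesyl diphosphate synthase (Fdps) and the acyl-CoA synthetase Acsl5 were higher, and Srebf2, Scap, the synthase Hmgcs1 and the elongase Elovl5 were lower. Of all genes, 11.8% were called between these groups, 6.13% higher and 5.7% lower, by limma at the same threshold. The members' median log2 difference was -0.04, against -0.01 over all genes. Without postmitotic array 3 and effector array 3, 2 members were called, Elovl6 higher with an adjusted p of 0.0465 and Srebf2 lower with an adjusted p of 0.0441 (limma, Benjamini-Hochberg). Leaving out postmitotic array 2 gave 4 calls, 2 of them lower. The 21 cell cycle genes had a median log2 difference of 0.77 in this comparison, with 11 called higher, and their part in it was not tested. By their p and fold in the authors' deposited table, Elovl6 was the only member selected, against 6.06% of all genes.

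Postmitotic cells differed from effector cells in 15 members, 5 higher and 10 lower. Higher were Elovl6, the decarboxylase Mvd, mevalonate kinase (Mvk), fatty acid synthase (Fasn) and Elovl5. Lower were Idi1, Fdft1, Cyp51, Stard4, Scd2, Acsl4, Sqle, Pmvk, Elovl1 and Acsl5. Over all genes limma called 24.9%, 13.2% higher and 11.8% lower. The members' median log2 difference was -0.16, against 0.04 over all genes. Without postmitotic array 3 and effector array 3 there were 8 calls, 3 higher and 5 lower. Of these, Mvd, Elovl6, Idi1, Fdft1, Cyp51, Stard4 and Acsl4 were also called with all arrays, and Tm7sf2 was not. Higher calls numbered 3 without effector array 1, effector array 3 or postmitotic array 3, and 2 without effector array 2 or postmitotic array 1. The cell cycle genes had a median difference of -2.02 here, and 4 of 14 myeloid markers were called lower, and the part of either was not tested. The authors' deposited table selected 8 members at their p and fold, 2 higher and 6 lower, against 14.7% of all genes. Naive, effector and postmitotic values enter 2 comparisons each, so the 3 counts are not independent of one another.

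**Figure D1:**
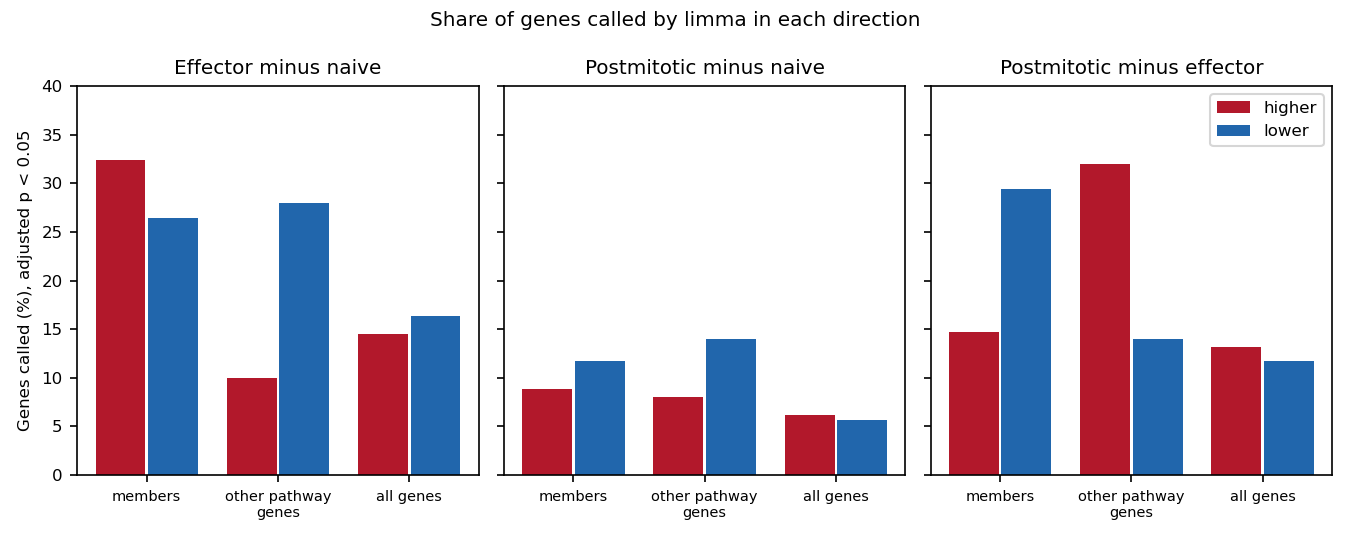
Bars give the percentage of genes called by limma at an adjusted p under 0.05, higher (red) and lower (blue), among the 34 members, the 50 other pathway genes and all 13152 genes, in each of the 3 comparisons. Members called lower made up the taller member bar between postmitotic and effector cells (10 against 5 higher), and members called higher did between effector and naive cells (11 against 9 lower).

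**Figure D2:**
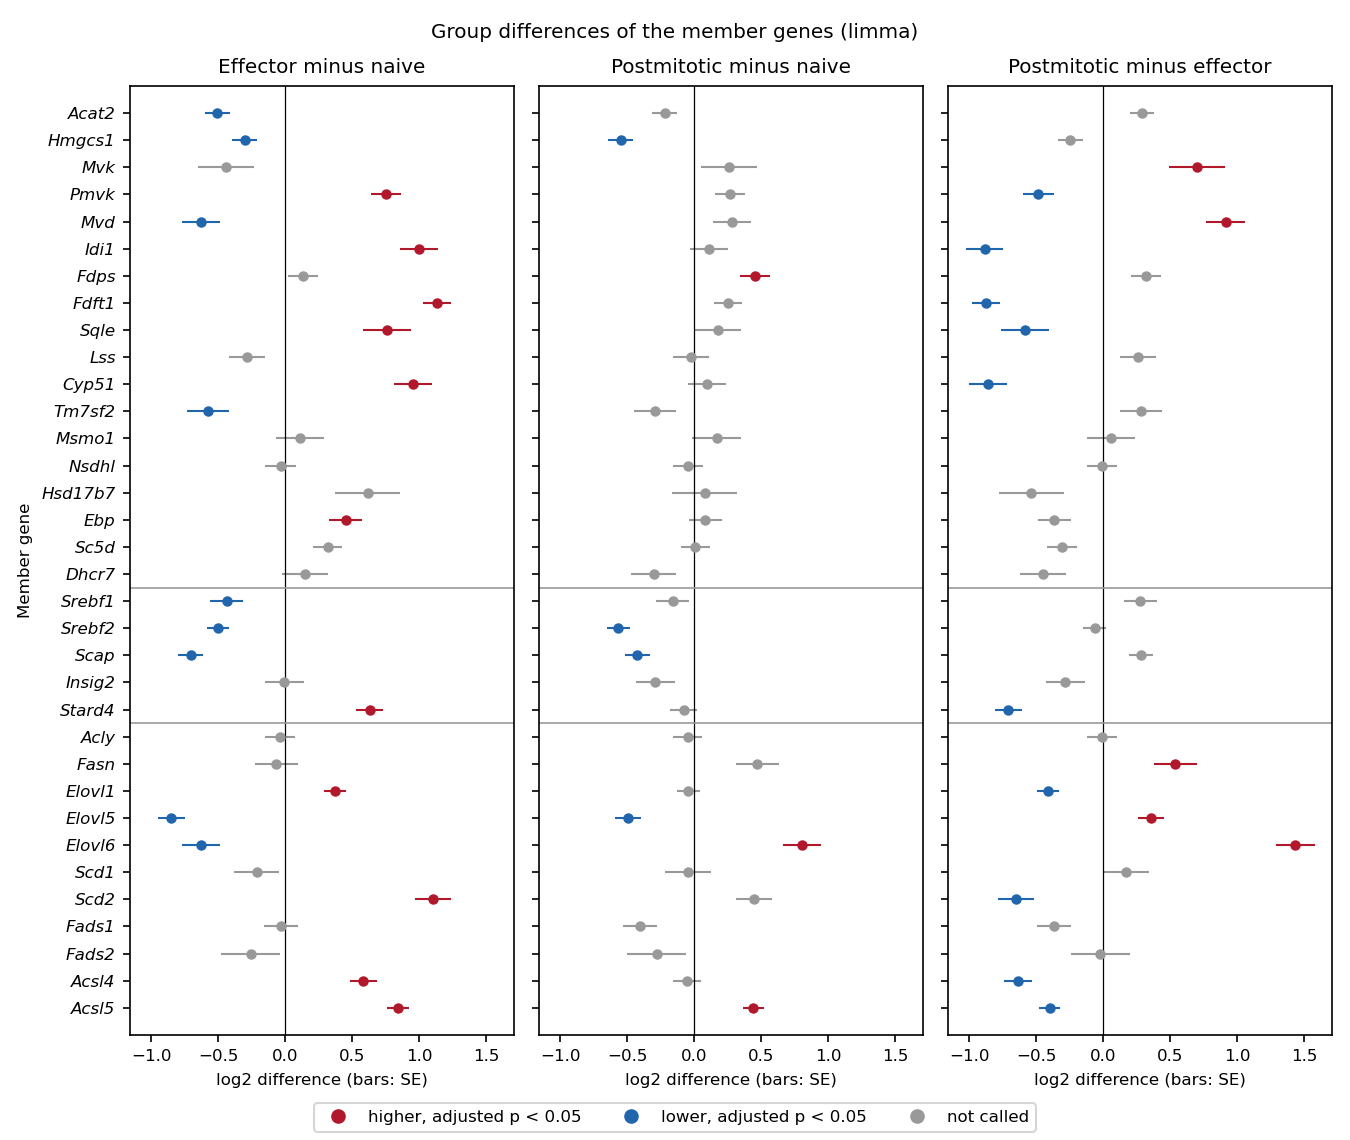
Points give the log2 difference of each member in the 3 comparisons and bars its standard error from limma, with red for called higher, blue for called lower and grey for not called, and lines between cholesterol enzymes, regulators with sterol transfer, and fatty acid enzymes. Fdft1 has the highest point between effector and naive cells (1.13) and Elovl6 the highest between postmitotic and effector cells (1.43).

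Of the 5 enzymes that lead from acetyl-CoA to isopentenyl diphosphate, 3 fell and 1 rose in effector relative to naive cells. This was a called share of 80.0%, against 30.8% of all genes. Acat2, the cytosolic thiolase that joins acetyl-CoA units, averaged 12.15 ± 0.04 in postmitotic cells, 11.86 ± 0.06 in effector cells and 12.37 ± 0.12 in naive cells (log2 signal, SD, n = 3 each). It was 1.42-fold lower in effector than in naive cells (difference -0.51 on the log2 scale, SE 0.09, adjusted p = 0.00349) and was not called in the other comparisons. Hmgcs1, the HMG-CoA synthase, read 12.38, 12.18 and 12.17 on the postmitotic arrays, 12.49, 12.42 and 12.55 on the effector arrays and 12.83, 12.75 and 12.79 on the naive arrays. No groups overlapped, and postmitotic arrays were lowest. It fell by 0.55 in postmitotic relative to naive cells (SE 0.09, adjusted p = 0.00949) and by 0.30 in effector relative to naive cells (adjusted p = 0.0409), while its postmitotic minus effector difference of -0.25 did not pass (adjusted p = 0.0948). The effector call ended when any naive array, any effector array or postmitotic array 2 was left out, with adjusted p from 0.0518 to 0.135 and differences from -0.33 to -0.27. Over 20 alternatives it was lost in 13. By limma over all probe sets, the 3 dimmer probe sets of Hmgcs1 were not called in any comparison, with postmitotic minus naive differences of -0.38, -0.50 and 0.16. Under that adjustment the brightest one did not pass between effector and naive cells either (adjusted p = 0.0567). It passed between postmitotic and naive cells (adjusted p = 0.0152).

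The next 3 enzymes pass mevalonate on by phosphorylation and decarboxylation. Pmvk rose and Mvd fell in effector relative to naive cells. Mvk, mevalonate kinase, read 8.99, 8.46 and 8.89 on the postmitotic arrays, 8.35, 8.19 and 7.71 on the effector arrays and 8.42, 8.40 and 8.75 on the naive arrays. The postmitotic arrays all lay above the effector arrays and overlapped the naive arrays. It was 1.62-fold higher in postmitotic than in effector cells (difference 0.70 on the log2 scale, SE 0.21, adjusted p = 0.0422), and this call ended without naive array 1 or 2, effector array 2 or 3, or postmitotic array 1 or 3 (adjusted p 0.0562 to 0.127, differences 0.51 to 0.75). Pmvk, phosphomevalonate kinase, read 9.74, 9.84 and 9.75 on the postmitotic arrays, 10.18, 10.34 and 10.27 on the effector arrays and 9.38, 9.42 and 9.73 on the naive arrays. All effector arrays were above all others. It was 1.68-fold higher in effector than in naive cells (difference 0.75 on the log2 scale, SE 0.11, adjusted p = 0.00139) and 1.40-fold lower in postmitotic than in effector cells (adjusted p = 0.015). The second of these calls ended without effector array 2 or 3, at differences of -0.48 to -0.45 and adjusted p of 0.0536 to 0.0593. Mvd, which decarboxylates mevalonate diphosphate to isopentenyl diphosphate, read 9.29, 9.48 and 9.69 on the postmitotic arrays, 8.75, 8.42 and 8.55 on the effector arrays and 9.25, 9.03 and 9.33 on the naive arrays. The effector arrays were lowest, and postmitotic and naive arrays overlapped. Mvd was 1.55-fold lower in effector than in naive cells (difference -0.63 on the log2 scale, SE 0.14, adjusted p = 0.0109) and 1.88-fold higher in postmitotic than in effector cells (adjusted p = 0.00212). Its other probe set gave -0.27 and 0.20 for these differences, and neither passed over all probe sets (adjusted p = 0.18 and 0.348).

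At the isoprenoid steps, Idi1 rose in effector cells and Fdps in postmitotic cells. Idi1 interconverts the 2 isopentenyl building blocks. It read 9.97, 9.94 and 9.50 on the postmitotic arrays, 10.65, 10.75 and 10.66 on the effector arrays and 9.84, 9.59 and 9.64 on the naive arrays. Effector arrays stood above all others, while postmitotic arrays spanned the naive ones. It was 2.00-fold higher in effector than in naive cells (difference 1.00 on the log2 scale, SE 0.14, adjusted p = 0.000933) and 1.85-fold lower in postmitotic than in effector cells (adjusted p = 0.00222). Its other probe set gave 1.02 and -0.78 for these differences. Fdps, which makes farnesyl diphosphate, the branch point to sterols and prenyl groups, read 8.67, 8.77 and 8.81 on the postmitotic arrays, 8.31, 8.53 and 8.45 on the effector arrays and 8.19, 8.21 and 8.48 on the naive arrays. The postmitotic arrays were highest and effector and naive arrays overlapped. It was 1.37-fold higher in postmitotic than in naive cells (difference 0.45 on the log2 scale, SE 0.11, adjusted p = 0.0382). That call ended without naive array 1 or 2, any effector array or any postmitotic array, with adjusted p of 0.0533 to 0.0992 and differences of 0.40 to 0.49. The other differences of Fdps, 0.13 for effector minus naive and 0.32 for postmitotic minus effector, did not pass.

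Of the 11 enzymes from squalene to cholesterol, 4 rose and 1 fell in effector relative to naive cells, a called share of 45.5%, against 30.8% of all genes. In postmitotic cells, 3 fell relative to effector cells, a share of 27.3%, which is near the 24.9% of all genes. None was called in postmitotic against naive cells by limma or passed the authors' p and fold, with 1 higher at an unadjusted p under 0.05. Fdft1, squalene synthase, catalyses the first step committed to sterols. It read 9.33, 9.41 and 9.45 on the postmitotic arrays, 10.24, 10.22 and 10.36 on the effector arrays and 9.23, 8.96 and 9.23 on the naive arrays. Each group kept clear of the others, with effector arrays highest and naive arrays lowest. Fdft1 was 2.19-fold higher in effector than in naive cells (difference 1.13 on the log2 scale, SE 0.11, adjusted p = 9.16e-05) and 1.84-fold lower in postmitotic than in effector cells (log2 difference -0.88, adjusted p = 0.00049). The postmitotic minus naive difference of 0.25 did not pass (adjusted p = 0.167). Sqle, squalene epoxidase, is known as a rate-limiting enzyme of the late route. It read 9.10, 8.76 and 8.95 on the postmitotic arrays, 9.44, 9.56 and 9.57 on the effector arrays and 9.00, 8.36 and 8.94 on the naive arrays. Effector arrays lay above all others, and naive array 2 was the lowest of all. Sqle was 1.69-fold higher in effector than in naive cells (difference 0.76 on the log2 scale, SE 0.18, adjusted p = 0.0121) and fell by 0.58 in postmitotic relative to effector cells (adjusted p = 0.0444). That second call of Sqle ended without naive array 3, any effector array or any postmitotic array, with adjusted p of 0.0547 to 0.132 and differences of -0.66 to -0.50.

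Cyp51, the lanosterol demethylase, read 9.34, 9.39 and 9.57 on the postmitotic arrays, 10.17, 10.37 and 10.34 on the effector arrays and 9.61, 9.12 and 9.29 on the naive arrays. The effector arrays were highest and the other groups overlapped. Cyp51 was 1.94-fold higher in effector than in naive cells (difference 0.95 on the log2 scale, SE 0.14, adjusted p = 0.00119) and 1.82-fold lower in postmitotic than in effector cells (adjusted p = 0.00254). Its 3 dimmer probe sets were not called in any comparison over all probe sets, and their effector minus naive differences were 0.09, 0.40 and 0.65. Those that gave 0.40 and 0.65 averaged 6.57 and 6.49 over the 9 arrays, below the value of zero signal, and say little about the call. Ebp, a sterol isomerase, averaged 11.27 ± 0.22 in postmitotic, 11.63 ± 0.05 in effector and 11.18 ± 0.10 in naive cells and was 1.37-fold higher in effector than in naive cells (adjusted p = 0.0244). This call ended without naive array 1 or 3 or any effector array, with adjusted p of 0.0569 to 0.0745 and differences of 0.40 to 0.48. Tm7sf2, a sterol reductase, averaged 8.29 ± 0.09 in postmitotic, 8.01 ± 0.31 in effector and 8.58 ± 0.12 in naive cells and was 1.49-fold lower in effector than in naive cells (adjusted p = 0.0246). Effector array 3, at 8.36, stood apart from effector arrays 1 and 2, at 7.81 and 7.85. The Tm7sf2 call ended without naive array 1 or 2 or effector array 1 or 2, with adjusted p of 0.0661 to 0.088 and differences of -0.55 to -0.48.

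The other sterol enzymes were not called in any comparison. Lss, which closes squalene epoxide into lanosterol, averaged 9.22 ± 0.08 in postmitotic, 8.96 ± 0.21 in effector and 9.25 ± 0.16 in naive cells. Msmo1, Nsdhl and Hsd17b7, which together remove methyl groups of the sterol ring, gave effector minus naive differences of 0.11, -0.04 and 0.61. The last of these, of Hsd17b7, had a standard error of 0.25 and an adjusted p of 0.0981. A second Hsd17b7 probe set of nearly the same brightness gave -0.04 (adjusted p = 0.931 by limma over all probe sets). Sc5d, a sterol desaturase, averaged 8.70 ± 0.10 in postmitotic, 9.01 ± 0.15 in effector and 8.69 ± 0.07 in naive cells, with an effector minus naive adjusted p of 0.059. For this difference its brighter probe set gave 0.32 and its dimmer one 0.0012. Dhcr7, which carries out the last step to cholesterol in one branch, averaged 9.43 ± 0.30 in postmitotic, 9.88 ± 0.09 in effector and 9.73 ± 0.21 in naive cells.

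**Figure D3:**
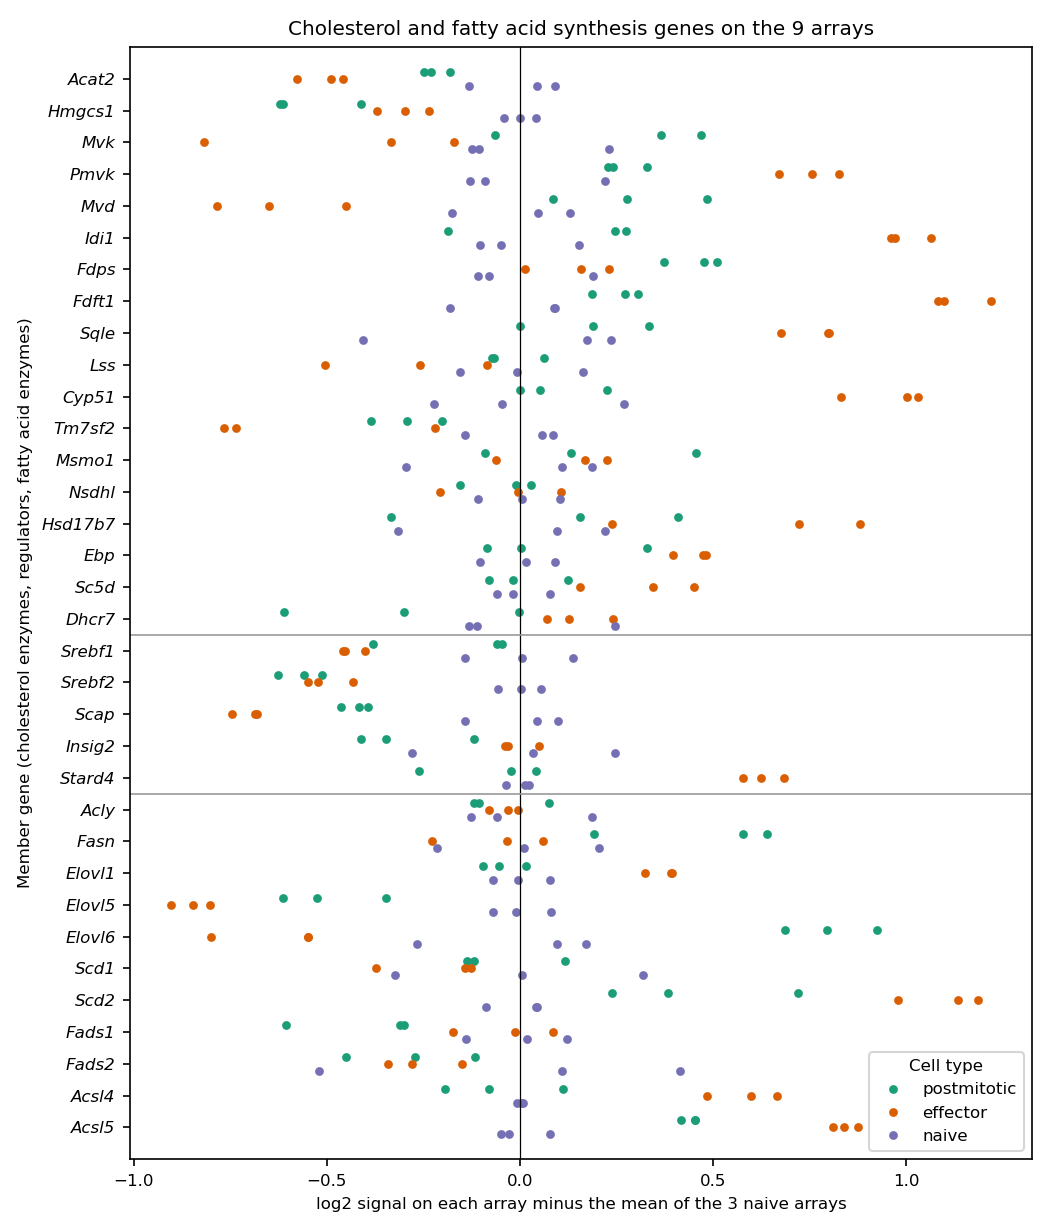
Each point gives the log2 signal of a member on 1 of the 9 arrays minus the mean of the 3 naive arrays, with postmitotic cells in green, effector cells in orange and naive cells in purple, 1 gene per line. Effector points lie clear to the right for Fdft1, Idi1, Cyp51 and Scd2 and to the left for Mvd, Scap and Elovl5, while the postmitotic points of Elovl6 lie to the right of all others on that line.

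Srebf1, Srebf2 and Scap fell in effector cells, and Srebf2 and Scap also fell in postmitotic cells, each relative to naive cells. Of the 5 genes of control and sterol transfer, 3 fell and 1 rose in effector relative to naive cells, a called share of 80.0%, against 30.8% of all genes. Srebf2 encodes the SREBP that acts mainly on cholesterol genes. It read 8.62, 8.73 and 8.69 on the postmitotic arrays, 8.70, 8.72 and 8.82 on the effector arrays and 9.19, 9.25 and 9.30 on the naive arrays. Every recipient array lay below every naive array, and postmitotic and effector arrays overlapped. It fell by 0.57 in postmitotic relative to naive cells (SE 0.09, adjusted p = 0.00564) and by 0.50 in effector relative to naive cells (SE 0.09, adjusted p = 0.0024). Postmitotic and effector cells differed by -0.07, which did not pass (adjusted p = 0.65). Its dimmer probe sets gave postmitotic minus naive differences of -0.51 and -0.03, which did not pass over all probe sets (adjusted p = 0.0964 and 0.938), and the postmitotic call was lost with the probe set of highest variance. For effector minus naive they gave -0.63 (adjusted p = 0.0216) and -0.42 (adjusted p = 0.0821). Srebf1, whose product acts mainly on fatty acid genes, read 10.87, 10.53 and 10.85 on the postmitotic arrays, 10.51, 10.45 and 10.46 on the effector arrays and 11.05, 10.77 and 10.92 on the naive arrays. Effector arrays were lowest, and the postmitotic arrays overlapped the naive ones. It was 1.36-fold lower in effector than in naive cells (difference -0.44 on the log2 scale, SE 0.12, adjusted p = 0.0256). This call ended without naive array 1 or 3 or any effector array, with adjusted p of 0.0589 to 0.0784 and differences of -0.46 to -0.37.

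Scap, the escort of both SREBPs, read 11.13, 11.08 and 11.15 on the postmitotic arrays, 10.86, 10.80 and 10.86 on the effector arrays and 11.64, 11.59 and 11.40 on the naive arrays. The groups did not overlap, with effector arrays lowest and naive arrays highest. It fell by 0.71 in effector relative to naive cells (SE 0.09, adjusted p = 0.00061) and by 0.42 in postmitotic relative to naive cells (adjusted p = 0.0228), and its postmitotic minus effector difference of 0.28 did not pass (adjusted p = 0.0591). The postmitotic call ended without naive array 2, effector array 3 or postmitotic array 1 or 2, with adjusted p of 0.0508 to 0.0682 and differences of -0.43 to -0.40. Insig2, which retains the SREBP and Scap complex, read 10.85, 11.08 and 10.78 on the postmitotic arrays, 11.25, 11.16 and 11.16 on the effector arrays and 10.92, 11.44 and 11.23 on the naive arrays. Naive arrays overlapped both other groups, postmitotic arrays lay below effector arrays, and no comparison was called. Its 3 probe sets disagreed between effector and naive cells, at -0.01, 0.28 and 0.56, of which only the last, from the dimmest of them, was called when all probe sets were tested (adjusted p = 0.0069). That probe set and the middle one were also called lower in postmitotic than in effector cells, by -0.46 and -0.34. Stard4 carries sterol between membranes. It read 9.30, 9.00 and 9.23 on the postmitotic arrays, 9.83, 9.88 and 9.94 on the effector arrays and 9.27, 9.28 and 9.22 on the naive arrays. Effector arrays were highest and the other groups overlapped. Stard4 was 1.55-fold higher in effector than in naive cells (difference 0.63 on the log2 scale, SE 0.10, adjusted p = 0.00189) and 1.64-fold lower in postmitotic than in effector cells (adjusted p = 0.00127).

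Among the 11 fatty acid enzymes, 4 rose and 2 fell in effector relative to naive cells, 2 rose and 1 fell in postmitotic relative to naive cells, and 3 rose and 4 fell in postmitotic relative to effector cells. The shares called were 54.5%, 27.3% and 63.6%, against 30.8%, 11.8% and 24.9% of all genes. Acly, which makes cytosolic acetyl-CoA from citrate, averaged 12.94 ± 0.11 in postmitotic, 12.95 ± 0.04 in effector and 12.99 ± 0.16 in naive cells and was not called in any comparison. Its 3 group means lay within 1 SD of the naive arrays. Fasn, the synthase that builds palmitate, averaged 10.18 ± 0.24 in postmitotic, 9.65 ± 0.15 in effector and 9.71 ± 0.21 in naive cells. It was 1.45-fold higher in postmitotic than in effector cells (difference 0.54 on the log2 scale, SE 0.16, adjusted p = 0.0424), while the postmitotic minus naive difference of 0.47 did not pass (adjusted p = 0.104). The Fasn call ended without naive array 1, any effector array or postmitotic array 1 or 3, with adjusted p of 0.0577 to 0.134 and differences of 0.45 to 0.60.

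The 3 elongases each showed a different pattern. Elovl6, which lengthens palmitate to stearate, read 10.09, 10.22 and 9.98 on the postmitotic arrays, 8.75, 8.75 and 8.50 on the effector arrays and 9.03, 9.47 and 9.39 on the naive arrays. The groups did not overlap, with postmitotic arrays highest and effector arrays lowest. Elovl6 was 2.70-fold higher in postmitotic than in effector cells (difference 1.43 on the log2 scale, SE 0.14, adjusted p = 0.000187) and 1.74-fold higher in postmitotic than in naive cells (log2 difference 0.80, adjusted p = 0.0111). Between effector and naive cells it fell by 0.63 (adjusted p = 0.0101). Its second, dimmer probe set gave 1.29, 0.69 and -0.61 for these differences, of which the first passed over all probe sets (adjusted p = 0.00834). Elovl5, which lengthens polyunsaturated fatty acids, read 13.77, 13.59 and 13.51 on the postmitotic arrays, 13.27, 13.22 and 13.32 on the effector arrays and 14.20, 14.11 and 14.05 on the naive arrays. Groups again kept apart, with naive arrays highest and effector arrays lowest. It was 1.80-fold lower in effector than in naive cells (difference -0.85 on the log2 scale, SE 0.10, adjusted p = 0.000334), 1.41-fold lower in postmitotic than in naive cells (adjusted p = 0.0172) and 1.28-fold higher in postmitotic than in effector cells (adjusted p = 0.0315). Without postmitotic array 2 the Elovl5 difference between postmitotic and naive cells was -0.48 with an adjusted p of 0.0549. Leaving out any effector array or postmitotic array 1 or 2 ended its postmitotic minus effector call, with adjusted p of 0.0642 to 0.105 and differences of 0.28 to 0.38. Elovl1, which acts on very long saturated chains, averaged 12.25 ± 0.06 in postmitotic, 12.66 ± 0.04 in effector and 12.29 ± 0.07 in naive cells. It was 1.29-fold higher in effector than in naive cells (adjusted p = 0.0107) and 1.33-fold lower in postmitotic than in effector cells (adjusted p = 0.00763).

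**Figure D4:**
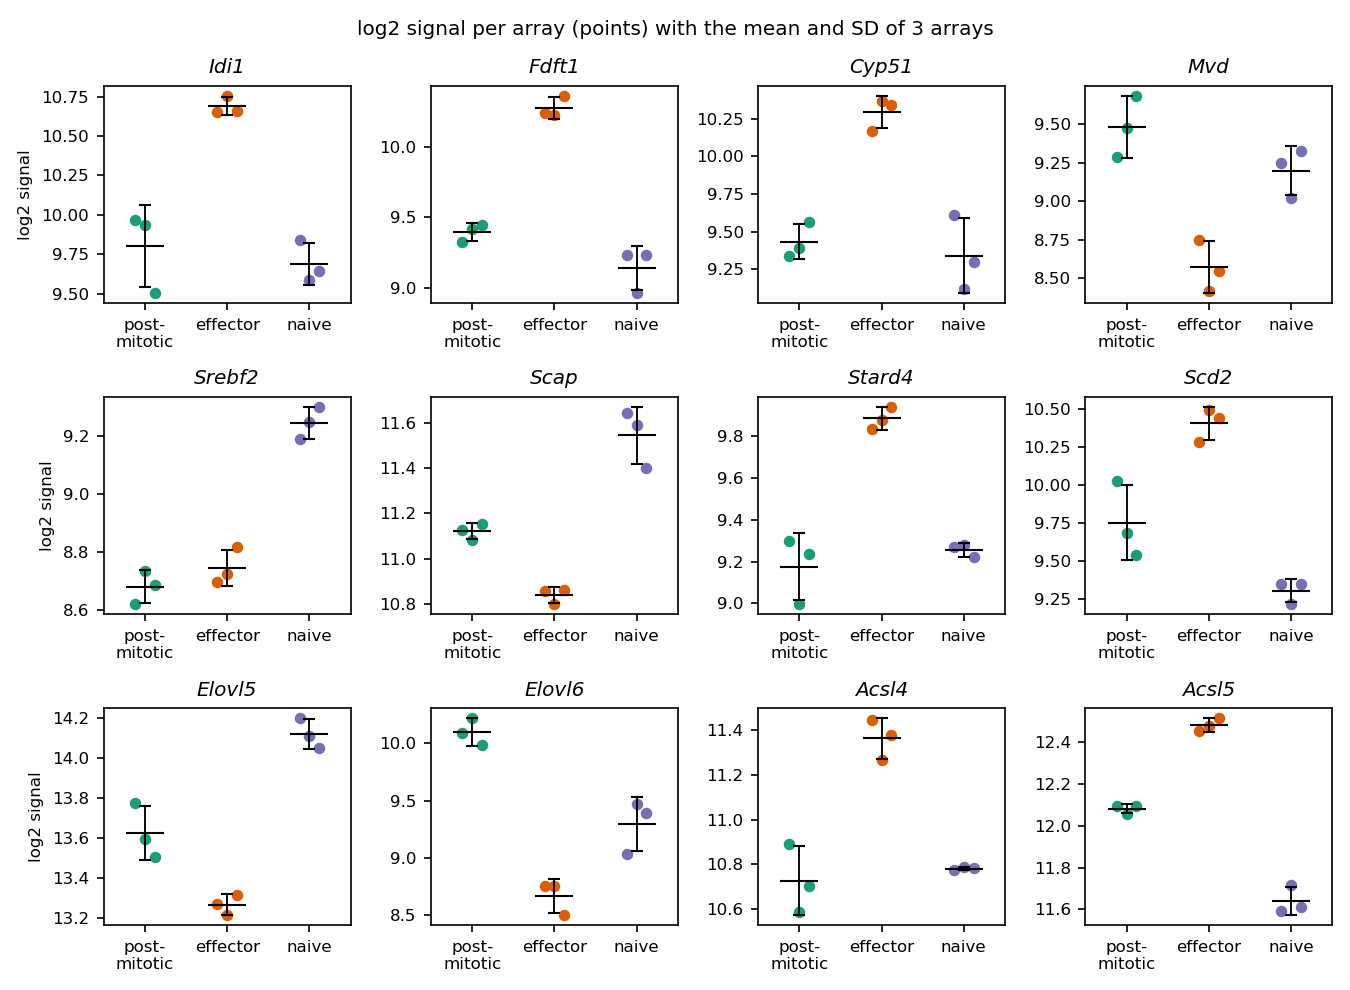
Points give the log2 signal of 12 members on each array of postmitotic (left, green), effector (middle, orange) and naive (right, purple) cells, and lines the mean with its SD over 3 arrays. The vertical axes differ between panels and do not start at 0. Effector cells are highest for Idi1, Fdft1, Cyp51, Stard4, Scd2, Acsl4 and Acsl5, and postmitotic cells are highest for Elovl6 and, with an overlap with naive cells, for Mvd.

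Of the 4 desaturases, Scd2 alone was called by limma in any of the 3 comparisons. Scd2 introduces the first double bond into stearoyl-CoA. It read 10.03, 9.69 and 9.54 on the postmitotic arrays, 10.29, 10.49 and 10.44 on the effector arrays and 9.35, 9.22 and 9.35 on the naive arrays. Effector arrays were highest, naive arrays lowest, and postmitotic arrays lay between without overlap. It was 2.14-fold higher in effector than in naive cells (difference 1.10 on the log2 scale, SE 0.13, adjusted p = 0.000436) and 1.57-fold lower in postmitotic than in effector cells (adjusted p = 0.0082). Its postmitotic minus naive difference was 0.45, which did not pass (adjusted p = 0.0698). The dimmer probe sets of Scd2 gave effector minus naive differences of 0.71 and 0.33 and postmitotic minus effector differences of -0.18 and -0.36, none of them called over all probe sets. The one that gave 0.33 and -0.36 averaged 6.70 over the 9 arrays, close to the value of zero signal. Scd1, of the same family, averaged 7.05 ± 0.14 in postmitotic, 6.88 ± 0.14 in effector and 7.09 ± 0.32 in naive cells, close to the value of zero signal. Fads1 and Fads2 desaturate polyunsaturated chains. Fads1 averaged 8.98 ± 0.17 in postmitotic, 9.35 ± 0.13 in effector and 9.39 ± 0.13 in naive cells, and the dim Fads2 averaged 7.16 ± 0.17, 7.18 ± 0.10 and 7.44 ± 0.48 in the same order.

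Both acyl-CoA synthetases among the members rose in effector relative to naive cells. Acsl1, of the same family and among the further genes below, went the other way. It fell by 0.96 in effector relative to naive cells (adjusted p = 0.0145 by limma). In postmitotic relative to effector cells Acsl1 rose by 0.96 (adjusted p = 0.0171). The dim Acsl6 was not called in any comparison. Acsl5 read 12.10, 12.06 and 12.09 on the postmitotic arrays, 12.45, 12.48 and 12.52 on the effector arrays and 11.59, 11.72 and 11.61 on the naive arrays. The groups did not overlap, and postmitotic arrays lay between the others. It was 1.79-fold higher in effector than in naive cells (difference 0.84 on the log2 scale, SE 0.08, adjusted p = 0.000109), 1.36-fold higher in postmitotic than in naive cells (adjusted p = 0.0122) and 1.32-fold lower in postmitotic than in effector cells (adjusted p = 0.00711). Acsl4, which prefers arachidonate and other polyunsaturated fatty acids, averaged 10.73 ± 0.15 in postmitotic, 11.36 ± 0.09 in effector and 10.78 ± 0.01 in naive cells. It rose by 0.58 in effector relative to naive cells (adjusted p = 0.00306) and 1.56-fold lower in postmitotic than in effector cells (adjusted p = 0.00246). Of its dimmer probe sets, 1 gave an effector minus naive difference of 0.55 and the other -0.075.

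Different probe sets of the same member mostly gave the same direction. Of the 20 members called between effector and naive cells, 12 had other probe sets, and 18 of these 20 further probe sets had the same sign. Between postmitotic and naive cells 6 of 7 did, over 4 members, and between postmitotic and effector cells 14 of 15 did, over 10 members. No further probe set was called in the opposite direction by limma over all probe sets. Under that adjustment some brightest probe sets also missed 0.05. They were those of Hmgcs1 between effector and naive cells (adjusted p = 0.0567) and Fdps between postmitotic and naive cells (adjusted p = 0.0524). Between postmitotic and effector cells they were those of Mvk, Fasn and Sqle (adjusted p = 0.0508, 0.0527 and 0.0545). Probe sets of the same gene were read from the same RNA and are not replicates. With the probe set of highest variance in place of the brightest, calls were lost for Hmgcs1, Cyp51 and Acsl4 between effector and naive cells. Between postmitotic and naive cells they were lost for Hmgcs1, Fdps and Srebf2, and between postmitotic and effector cells for Mvk, Sqle, Cyp51, Fasn and Acsl4. Of these, Fdps, Mvk, Sqle and Fasn have only 1 probe set each, so their own values stayed the same. Their adjusted p moved only because the probe sets of other genes changed. Of the 34 probe sets chosen, 3 had names ending in _s_at (Acat2, Mvd and Lss) and 3 in _x_at (Acly, Elovl1 and Elovl5). Such probe sets can also bind similar transcripts of other genes.

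**Figure D5:**
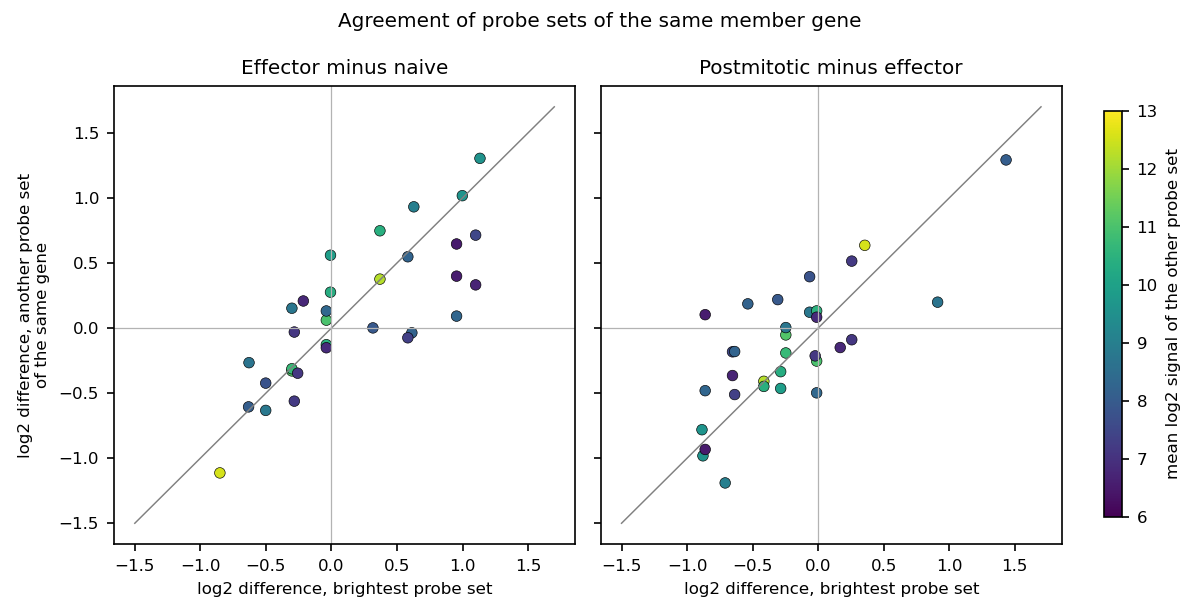
For members with several probe sets, each point sets the log2 difference of a further probe set (vertical axis) against that of the brightest one (horizontal axis), for effector minus naive and postmitotic minus effector, with colour for the further probe set's mean log2 signal and a line for equality. Among called members, 18 of 20 further probe sets in effector minus naive and 14 of 15 in postmitotic minus effector had the sign of the brightest.

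Of 50 further genes measured, 5 rose and 14 fell in effector relative to naive cells, 4 rose and 7 fell in postmitotic relative to naive cells, and 16 rose and 7 fell in postmitotic relative to effector cells. In all, 19, 11 and 23 of the 50 were called, beside 30.8%, 11.8% and 24.9% of all genes. The 11 calls between postmitotic and naive cells became 3 without postmitotic array 3 and effector array 3, 4 without naive array 3, postmitotic array 1 or postmitotic array 2, 5 without effector array 2 or 3, 6 without effector array 1 or postmitotic array 3, and 7 without naive array 2. Among the 16 genes of sterol uptake, storage and efflux, 1 rose and 6 fell in effector relative to naive cells, a called share of 43.8%, against 30.8% of all genes. Soat2, which esterifies cholesterol for storage, read 9.09, 9.17 and 8.97 on the postmitotic arrays, 9.92, 9.78 and 9.87 on the effector arrays and 6.97, 6.58 and 7.37 on the naive arrays. The naive arrays of Soat2 lay near zero signal, naive array 2 below it, and all of them well below both recipient groups. It was called higher in effector than in naive cells (adjusted p = 1.06e-05) and in postmitotic than in naive cells (adjusted p = 0.000665), and no size is given against a group so near zero signal. It fell by 0.78 in postmitotic relative to effector cells (adjusted p = 0.0142). Abca1, the cholesterol efflux pump, read 10.72, 10.34 and 10.11 on the postmitotic arrays, 8.22, 8.04 and 7.88 on the effector arrays and 10.16, 10.30 and 10.11 on the naive arrays. Effector arrays were lowest, and postmitotic and naive arrays overlapped. It was 4.42-fold lower in effector than in naive cells (adjusted p = 3.48e-05) and 5.08-fold higher in postmitotic than in effector cells (adjusted p = 3.18e-05). Mylip, a ubiquitin ligase of lipoprotein receptors, and Lipa, the lysosomal lipase of cholesterol esters, were 2.82-fold and 2.84-fold lower in effector than in naive cells. They rose by 1.43 and 0.77 on the log2 scale in postmitotic relative to effector cells. Scarb1, a lipoprotein receptor, rose by 0.70 in postmitotic relative to naive cells and by 1.03 in postmitotic relative to effector cells.

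Of the 10 measured genes of isoprenoid use, 1 rose and 2 fell in effector relative to naive cells, 1 fell in postmitotic relative to naive cells, and 3 rose and 1 fell in postmitotic relative to effector cells. These 3, 1 and 4 calls of 10 stand beside 30.8%, 11.8% and 24.9% of all genes, and the shares of the first and second comparison are near those. Fntb and Fnta encode the subunits of protein farnesyltransferase. Fntb fell by 1.51 in effector relative to naive cells (adjusted p = 0.00136) and rose by 1.69 in postmitotic relative to effector cells (adjusted p = 0.00093). Fnta fell by 0.68 in postmitotic relative to naive cells and by 0.61 in postmitotic relative to effector cells, and its effector minus naive difference was -0.07. Pdss1, which makes the ubiquinone side chain, rose by 0.78 in effector relative to naive cells. Among genes of SREBP cleavage and turnover, Mbtps1, the protease of the first SREBP cut, fell by 0.59 in effector relative to naive cells. Lpin1, a phosphatidate phosphatase that restrains SREBP in the nucleus, fell by 1.36 in effector relative to naive cells (adjusted p = 1.55e-05) and by 0.44 in postmitotic relative to naive cells. It rose by 0.92 in postmitotic relative to effector cells.

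Among 21 measured genes of acetyl-CoA and NADPH supply and further fatty acid steps, 2 rose and 4 fell in effector relative to naive cells, 2 rose and 2 fell in postmitotic relative to naive cells, and 5 rose and 4 fell in postmitotic relative to effector cells. The shares called were 28.6%, 19.0% and 42.9%, against 30.8%, 11.8% and 24.9% of all genes. Acss2 and Acss1, which make acetyl-CoA from acetate in the cytosol and the mitochondria, fell by 1.45 and 1.55 in effector relative to naive cells and rose by 1.21 and 1.14 in postmitotic relative to effector cells. Elovl7, a further elongase, fell by 1.97 in effector relative to naive cells and rose by 1.80 in postmitotic relative to effector cells. Mid1ip1, which promotes the polymerisation of acetyl-CoA carboxylase, rose by 1.05 in effector relative to naive cells (adjusted p = 5.38e-05) and by 0.35 in postmitotic relative to naive cells. Tecr, which completes each round of elongation, rose by 0.48 in effector relative to naive cells and fell by 0.49 in postmitotic relative to naive cells. Between postmitotic and effector cells Tecr fell by 0.97 (adjusted p = 0.000374).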

How the data were processed

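Per the labels' protocols, 600 ng of total RNA was amplified in 2 rounds and hybridised. The deposited readme says that the authors summarised each probe set by a trimmed mean, applied quantile normalization with naive array 2 as the standard and deposited log2 values. An offset of 50 was added to each signal, negative sums were set to 0, and 50 was added again. The lowest possible log2 value is 5.64. Array medians were 7.90, and 15.3% to 15.9% of the probe sets of an array lay at or below zero signal. The deposited fold columns are ratios of group means and the authors' deposited p-values are unadjusted pairwise contrasts. The version of the signal software was not given in the sources used here.

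Entrez numbers linked the deposited annotation to current symbols of RefSeq GRCm38.p6. The array has 22690 probe sets, and the 21259 that name 1 gene were used, leaving out 64 controls, 826 that name several genes and 541 that name none. The brightest probe set stood for each of 13152 genes. Differences were tested with limma 3.58.1 (R 4.3.3) on all 9 arrays, 1 mean per group, no covariate, 6 residual and 2.14 prior degrees of freedom, Benjamini-Hochberg adjustment over all genes and calls at 0.05. The procedure was tested on simulated data. The members, gene lists, tests and alternatives were chosen with earlier results of these data known.

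Values on every array are given for the regulators and, per comparison, for the 8 called members with the largest absolute difference, and up to 3 called genes per direction may be named from the other lists. A few members and 2 genes of other lists are given in more detail than that rule asks, and Acsl1 and Acsl6 are named outside it. Myeloid markers held 1 call higher and 1 lower between effector and naive cells, none between postmitotic and naive cells by limma (1 lower at an unadjusted p under 0.05) and 4 lower between postmitotic and effector cells. B cell markers held 2 higher and 1 lower, none (0 at an unadjusted p under 0.05), and 1 each way in these comparisons. Of the erythroid markers, Hemgn was called higher in postmitotic than in effector and naive cells. Y-linked genes held 1 call, higher in postmitotic than in effector cells, and T cell genes 3 higher, none (1 each way at an unadjusted p under 0.05), and 1 higher with 3 lower. The alternatives were the replicate number as a block, each array left out, both arrays with Y-linked signal left out, other choices of probe set, a smaller offset of 25, a filter on dim genes, low values raised to the 40th percentile, only the 6 arrays compared, a prior with trend and robust fitting, cyclic loess and the authors' criteria. A few genes of the marker and pathway lists are not reported here.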

Additional observations from a re-analysis of the deposited data

Results flagged for a closer look

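Elovl6, the elongase of palmitate, was called higher in postmitotic cells and lower in effector cells, each relative to naive cells. The difference between these effects is the postmitotic minus effector comparison already given above, and it is not a further test. The postmitotic minus effector difference was 1.43 on the log2 scale (SE 0.14, adjusted p = 0.000187 by limma with Benjamini-Hochberg adjustment), with all 3 postmitotic arrays above all 3 naive arrays and all 3 effector arrays below them. It was 1.41 without postmitotic array 3 and effector array 3, which showed Y-linked signal (adjusted p = 0.00452). The effector minus naive difference was then -0.55 and missed the threshold (adjusted p = 0.0544), and the postmitotic minus naive difference was 0.86 (adjusted p = 0.0465). Single arrays were not screened against their own group, since each group held 3.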

How the results depend on the processing

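Over 20 alternatives, the calls of 9 of 20 members between effector and naive cells (Pmvk, Mvd, Idi1, Fdft1, Scap, Stard4, Elovl5, Scd2 and Acsl5), of 1 of 7 between postmitotic and naive cells (Elovl6) and of 5 of 15 between postmitotic and effector cells (Mvd, Idi1, Fdft1, Stard4 and Elovl6) passed under every one. Members called under some alternative only numbered 4, 3 and 11. Directions turned only with the probe set of highest variance between effector and naive cells, for Acsl4 (-0.075) and Insig2 (0.56). No alternative moved the median of all genes by over 0.1. Uncalled values changed sign 20, 25 and 19 times, in 7, 13 and 8 members. Between postmitotic and naive cells, 7 members were called (3 higher, 4 lower), against 2 (1 higher, 1 lower) without the Y-signal arrays (postmitotic 3 and effector 3) and likewise with only the 6 arrays compared, 4 (2 lower) with the probe set of highest variance, and 1 (1 higher, 0 lower) by the authors' criteria in their deposited table. Between postmitotic and effector cells, 15 were called (5 higher, 10 lower), against 8 (3 higher, 5 lower) without the Y-signal arrays, 23 (8 higher) with the filter on dim genes, which left 8514 genes to test, and 8 (2 higher, 6 lower) by the authors' criteria, and 3 were higher with cyclic loess, with the probe set of highest variance and with the replicate block. Between effector and naive cells, 20 were called (9 lower), against 12 (4 lower) by the authors' criteria. Of the 50 other pathway genes, 11 were called between postmitotic and naive cells, against 3 without the Y-signal arrays, 18 with the filter on dim genes, 17 with trend and robust fitting, 7 with the mean of all probe sets, 6 with the probe set of highest variance, 2 with only the 6 arrays compared, 6 with the replicate block and 5 by the authors' criteria, and 15 of the 23 called between postmitotic and effector cells remained in number without the Y-signal arrays. Leaving out single arrays gave 16 to 20 members called between effector and naive cells, 4 to 7 between postmitotic and naive cells (2 to 4 lower) and 10 to 15 between postmitotic and effector cells (2 to 5 higher), and 4 to 8 other pathway genes between postmitotic and naive cells. Fits without an array or with only 6 have fewer degrees of freedom, and the cause of the other shifts was not tested. Deviations from group means correlated at 0.015 to 0.062 between arrays of the same replicate number, all positive, and at -0.052 to 0.018 otherwise. Whether arrays of the same number shared a preparation was not tested. The labels do not say that the numbers pair the samples, so the main fit did not use them. With the replicate block, 18, 6 and 13 members were called in place of 20, 7 and 15. Dim members such as Scd1 and Fads2 lie near zero signal, where differences are compressed.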
